A study of Homo sapiens with 9 samples.

Results

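Chemokines are small secreted proteins that steer the movement of leukocytes, and their receptors are membrane proteins of the G protein-coupled family. Genes of this system were taken from the RNA-seq of U937 cells by name: every gene whose symbol was CCL, CXCL, XCL, CX3CL, CCR, CXCR, XCR, CX3CR or ACKR followed by a number, with CCL3L1 and CCL4L2 included. This rule found 65 of the 60623 genes in the files, of which 43 encode ligands, 18 encode receptors and 4 encode atypical receptors (ACKR), which bind chemokines without G protein signalling. A gene was counted as expressed when it had at least 1 FPKM in any of the 9 libraries. FPKM divides the reads of a gene by the length of its exons and by the reads counted on genes in the library, so that levels of different genes can be compared per length.

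U937 is a human monocytic cell line. The 3 lines compared were stable U937 clones made by retroviral transduction with the doxycycline-inducible vector pRetrox-Tet3G, and carried HA-tagged AML1-ETO, HA-tagged ETO2-GLIS2 or the empty vector. All 3 lines, the empty vector line (control cells) included, received 5 μg/ml doxycycline and were sampled at 0, 12 and 48 h, so that each fusion was present on top of the cells' own genes and each line stands for 1 clone. Each of the 9 conditions had 1 library. There is no replicate check, no p-value was computed, and a difference between clones cannot be told apart from a difference between constructs. The intervals given are exact 95% intervals of the ratio of reads recovered from the FPKM values. They cover counting error only, and spread between cultures was not measured. They may be too narrow even for counting error, since sequencing reads that carry no molecular identifier can be copies of the same molecule.

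Ligands are grouped by the spacing of their first cysteines into the CC, CXC, CX3C and XC classes, and receptors are named after the class they bind. Monocytes both secrete chemokines and migrate towards them. CXCL8 and CXCL2 act on CXCR2 and attract neutrophils, CXCL10 and CXCL11 act on CXCR3 and are known as interferon-induced ligands, CCL2 acts on CCR2 and attracts monocytes, and CCL5 and CCL23 act on CCR1. CXCR4, the receptor of CXCL12, retains haematopoietic cells in the bone marrow.

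The libraries held between 15136398 and 18443639 reads on genes. The constructs were visible in their own lines: RUNX1T1, which encodes ETO, had 0.512, 22.2 and 28.7 FPKM at 0, 12 and 48 h in AML1-ETO cells, and GLIS2 had 2.39, 6.79 and 8.85 FPKM in ETO2-GLIS2 cells. The check is weaker for GLIS2, which the lines without this construct also had. Its levels were 4.76, 3.64 and 3.72 FPKM in control cells and 5.6, 2.93 and 2.47 FPKM in AML1-ETO cells. Of 12 markers of U937 monoblasts, 10 reached 1 FPKM in some library (MPO and CD68 did not), and their summed level was 388 to 3230 FPKM. The lowest of these sums belonged to AML1-ETO cells at 48 h, where LYZ, the lysozyme gene, had 45.1 FPKM after 970 FPKM at 0 h. Markers of other cells reached 1 FPKM less often. This level was reached by 1 of 4 mature monocyte markers (ITGAM) and 3 of 6 lymphoid markers (with CD3E, CD3D and MS4A1 at 0). It was reached by 0 of 6 megakaryocyte and erythroid markers and 1 of 6 stromal and epithelial markers (PECAM1). In this order, the summed levels were 0.832 to 11.5, 2.84 to 7.3, 0.0116 to 0.249 and 13.7 to 28.2 FPKM. PECAM1 alone had 13.6 to 28.2 FPKM, so the last sum was not low. The part of these marker levels in the changes described here was not tested.

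Of the 65 genes, 16 were expressed. These were 9 of the 43 ligands (CXCL8, CXCL2, CXCL10, CXCL11, CXCL16, CCL5, CCL23, CCL2 and CCL24), 7 of the 18 receptors (CXCR4, CXCR2, CXCR3, CCR1, CCR2, CCR10 and CX3CR1) and 0 of the 4 atypical receptors. Only 5 genes were at 1 FPKM or more in all 9 libraries, namely CCL5, CXCL8, CCR1, CXCR2 and CXCR4. With CXCL10, these made the 6 genes that reached 10 FPKM in any library. Of the other 49 genes, 18 had no reads in any library and 31 had reads but stayed under 1 FPKM, with at most 27 reads in a library. A count of 0 in a library allows up to 3 reads. Exons of other genes on the same strand cover 97.6% of the exon bases of CCL27, 85.2% of CCR6 and 41.8% of CCL15, which are among the 18 and are named after their values were seen, and HTSeq with default settings leaves out reads that fall on more than 1 gene. The threshold fell in a gap: the expressed gene with the lowest maximum was CCL24, with 1.49 FPKM, and the highest genes left out were CCL20, with 0.421 FPKM, and CCL3L1, with 0.406 FPKM. It also leaves out reads that map to several places, so the levels of near-identical copies, such as CCL3 and CCL3L1, CCL4 and CCL4L2, or CXCL1, CXCL2 and CXCL3, are uncertain and may be too low.

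Many chemokine genes lie in clusters. Of the 10 ligands on chromosome 4, CXCL8, CXCL2, CXCL10 and CXCL11 were expressed. Chromosome 17 held 17 ligands, of which CCL2, CCL5, CCL23 and CXCL16 were expressed. Of the 10 receptors on chromosome 3, CCR1, CCR2 and CX3CR1 were expressed. CXCR4 and CXCR2 lie on chromosome 2, CCR10 on chromosome 17, CXCR3 on chromosome X and CCL24 on chromosome 7. On GRCh38.p14 the most abundant receptor gene, CXCR4, spans chr2:136114349-136118149, the most abundant ligand gene, CCL5, spans chr17:35871491-35880360, and CCL2 spans chr17:34255285-34257203.

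The 4 expressed ligands of chromosome 4 are shown with the 250 bases before their RefSeq start on GRCh38.p14, because all 4 rose more than 2-fold in AML1-ETO cells at 48 h and share a sequence feature. They lie at chr4:73740319-73740568 on the plus strand for CXCL8, and on the minus strand at chr4:74099196-74099445 for CXCL2, chr4:76023498-76023747 for CXCL10 and chr4:76036071-76036320 for CXCL11. Each is written 5′ to 3′ along the gene, and capitals mark every match to the motifs listed after them.
CXCL8: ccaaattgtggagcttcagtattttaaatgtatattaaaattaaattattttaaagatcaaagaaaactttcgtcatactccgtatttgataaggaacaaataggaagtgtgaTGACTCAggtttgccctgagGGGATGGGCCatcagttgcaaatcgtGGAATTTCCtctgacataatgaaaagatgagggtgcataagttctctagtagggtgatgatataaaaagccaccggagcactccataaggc
CXCL2: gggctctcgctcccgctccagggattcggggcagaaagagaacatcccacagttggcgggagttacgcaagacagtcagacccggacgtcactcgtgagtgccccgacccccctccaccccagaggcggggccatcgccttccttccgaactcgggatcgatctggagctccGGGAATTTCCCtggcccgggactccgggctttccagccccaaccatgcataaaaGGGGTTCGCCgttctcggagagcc
CXCL10: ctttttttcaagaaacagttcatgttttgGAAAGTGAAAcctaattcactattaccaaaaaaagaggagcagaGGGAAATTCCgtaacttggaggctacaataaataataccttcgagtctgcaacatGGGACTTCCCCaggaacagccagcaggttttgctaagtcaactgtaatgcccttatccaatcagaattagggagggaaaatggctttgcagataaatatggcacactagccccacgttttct
CXCL11: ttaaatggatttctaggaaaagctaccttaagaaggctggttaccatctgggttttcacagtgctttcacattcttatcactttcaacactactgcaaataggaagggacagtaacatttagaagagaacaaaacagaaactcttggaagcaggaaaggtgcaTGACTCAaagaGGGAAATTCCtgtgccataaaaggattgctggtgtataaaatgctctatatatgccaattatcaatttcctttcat

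The motifs were chosen after the sequences had been seen and were searched on both strands of the promoters of 12 expressed members, since CCL2, CCL5, CXCL16 and CCR10 had no entry in the sequence table. The kappa B palindrome GGAANTTCC, a binding sequence of NF-kB, lay in the promoters of CXCL8 (bases -91 to -83 from the start), CXCL2 (-77 to -69), CXCL10 (-176 to -168) and CXCL11 (-75 to -67), and in 0.831% of the 27305 RefSeq promoters of the same length. It was found in none of the other 8 expressed members searched (CCL23, CCL24, CCR1, CCR2, CX3CR1, CXCR2, CXCR3 and CXCR4). CCL5 and CXCL16, which also rose in AML1-ETO cells at 48 h, were not among the promoters searched. Whether the palindrome goes with the rise was not tested. The palindrome did not separate expressed from unexpressed ligands, because 8 of the 10 ligands of chromosome 4 held it, and 4 of these (CXCL1, CXCL3, CXCL5 and CXCL6) stayed under 1 FPKM. The looser form, GGG and CC set 5 bases apart, which overlaps the palindrome in some promoters, was found in 6 of the 12 members and in 53.7% of all promoters. The interferon response element, GAAA repeated after 2 bases, was found in the promoter of CXCL10 (-221 to -212) and in 3.07% of all promoters. The AP-1 motif TGANTCA was found in CXCL8, CXCL11, CCR2 and CCL24 and in 6.6% of all promoters. The Runt motif TGTGGT, the sequence that AML1 binds, was found in CXCR2 and CCR1 and in 10.9% of all promoters, its variant TGCGGT in 0 members and 5.69% of all promoters, and the GLIS motif TGGGGGGT in 0 members and 1.2% of all promoters. A match describes these letters in this window only.

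Each library at 48 h was first compared with the library of its own line at 0 h. A gene was called higher or lower when it changed more than 2-fold on the scale of log2(FPKM + 0.01) and the mean of the compared libraries reached 1 FPKM, and only such genes are said to have risen or fallen. Among control cells, 9 members passed the filter, and 1 rose (CCR1) beside 8.0% of all genes tested, while 0 fell beside 2.99% of all genes. Among AML1-ETO cells, 9 members passed, and 6 rose (CXCL8, CXCL2, CXCL10, CXCL11, CXCL16 and CCL5) beside 17.3% of all genes, while 2 fell (CXCR4 and CXCR2) beside 11.3% of all genes. Among ETO2-GLIS2 cells, 12 members passed, and 3 rose (CCL2, CXCL16 and CXCR3) beside 10.8% of all genes, while 2 fell (CXCR4 and CCR2) beside 2.54% of all genes. The members that rose in AML1-ETO cells were all ligands, and those that fell were both receptors. This split covers called members only. The ligand CCL23 went from 1.38 to 0.443 FPKM there, a log2 ratio of -1.64 (-3.44 to -0.14). It was not called because its mean was under 1 FPKM. Over all members of at least 1 FPKM in any library, 8 were higher and 6 lower in this line, CCL23 among the 6. CXCL10, CXCL11 and CXCL16 in AML1-ETO cells and CCL2, CXCL16 and CXCR3 in ETO2-GLIS2 cells passed the filter through the 48 h library alone, so that they had to be higher there, and the counts are not support for a shift of the whole family.

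**Figure D1:**
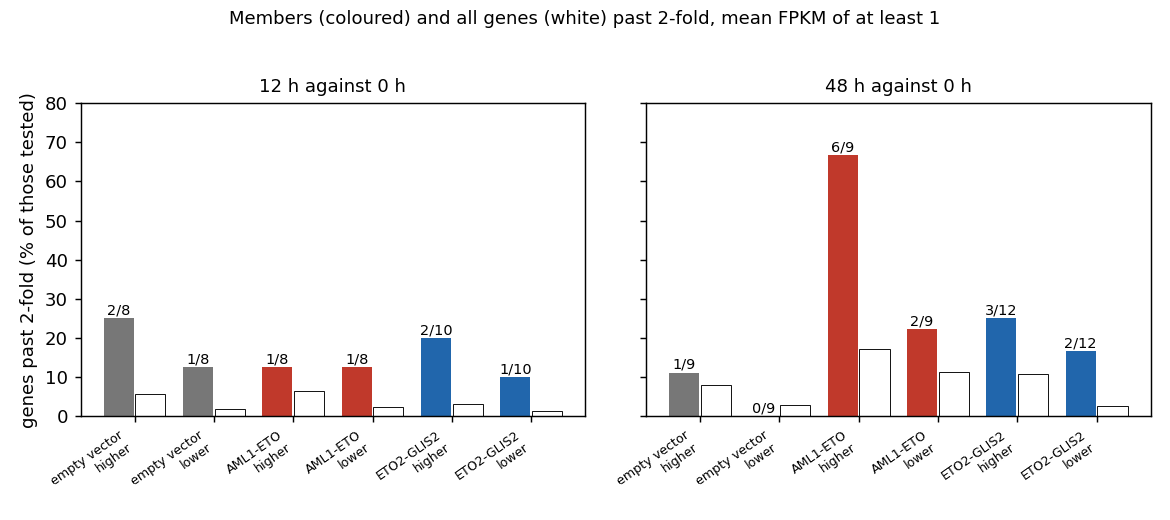
Share of members past 2-fold (coloured bars, with the number called over the number tested) and of all genes past 2-fold (white bars) at 12 and 48 h against 0 h, in percent of the genes whose mean reached 1 FPKM. At 48 h in AML1-ETO cells, 6 of 9 members tested were higher, and all genes stood at 17.3%.

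The median log2 fold change at 48 h of the members that passed the filter was 0.09 for control, 2.04 for AML1-ETO and 0.13 for ETO2-GLIS2 cells. The AML1-ETO median was 0.42 over the 16 expressed members and 0.0 over all 65. Over all genes with the same filter it was 0.16, 0.22 and 0.16. Rescaling each library by its median ratio brought these medians over all genes to 0.02, 0.07 and 0.02. Of the members tested, 5 of 9 were above 0 for control, 6 of 9 for AML1-ETO and 6 of 12 for ETO2-GLIS2 cells.

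Summed over all 43 ligands, AML1-ETO cells had 68.3, 84.1 and 286 FPKM at 0, 12 and 48 h. The sums were 45.3, 47.3 and 29.7 FPKM in control cells and 50.9, 46.7 and 47.2 FPKM in ETO2-GLIS2 cells. The AML1-ETO library at 48 h thus stood above the other 8 libraries, which lay between 29.7 and 84.1 FPKM. CCL5 and CXCL8 together made up 74.7% to 94.5% of the ligand sum in every library. The receptor sum took the 18 receptors together with the 4 atypical receptors. It was 121, 90.2 and 11.9 FPKM in AML1-ETO cells, 94.1, 88.8 and 83.6 FPKM in control cells, and 110, 116 and 68.4 FPKM in ETO2-GLIS2 cells. CXCR4 made up 53.8% to 83.5% of the receptor sum in 8 libraries and 17.3% in the AML1-ETO library at 48 h. These are bulk samples, in which fewer cells with a transcript and less of it per cell cannot be told apart.

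**Figure D2:**
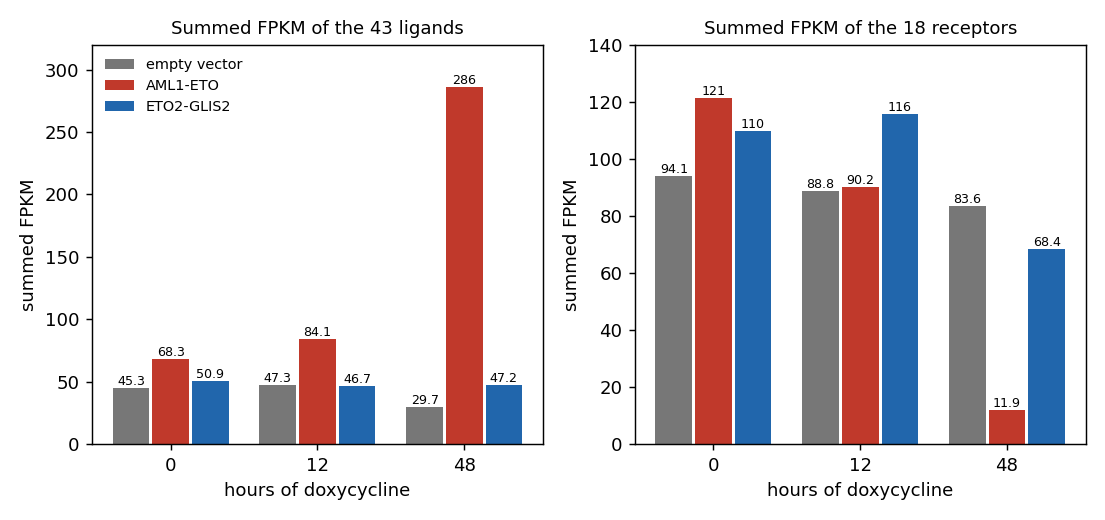
Summed FPKM of the 43 ligands (left) and the receptors (right) by hours of doxycycline, with 1 bar per library and the value above it. The right panel, titled with the 18 receptors, also includes the 4 atypical receptors. The AML1-ETO ligand sum was 286 FPKM and the receptor sum 11.9 FPKM at 48 h, and both lay outside the range of the other 8 libraries.

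CXCL8 (ENSG00000169429), the neutrophil chemoattractant interleukin-8, had 5.02, 1.27 and 5.34 FPKM at 0, 12 and 48 h in control cells, 15, 20.7 and 113 FPKM in AML1-ETO cells, and 12.6, 4.67 and 12.2 FPKM in ETO2-GLIS2 cells. AML1-ETO cells were the highest at each time, and the others shared a dip at 12 h that AML1-ETO cells lacked. From 0 to 48 h, CXCL8 rose 7.57-fold in AML1-ETO cells, a log2 ratio of 2.92 (2.79 to 3.05), from 556 to 3863 reads. In control cells at 12 h it fell by 1.99 on the log2 scale (interval -2.50 to -1.50). It fell by 1.43 (interval -1.68 to -1.19) in ETO2-GLIS2 cells, where the log2 fold change was 0.55 with the change of control cells subtracted. The lines differed before induction: at 0 h AML1-ETO cells were above control cells by a log2 ratio of 1.58 (1.33 to 1.82) and ETO2-GLIS2 cells by 1.33 (1.08 to 1.58).

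CXCL2 (ENSG00000081041), which also acts on CXCR2, had 0.572, 0.709 and 0.558 FPKM in control cells, 1.25, 2.09 and 7.15 FPKM in AML1-ETO cells, and 0.543, 0.520 and 0.568 FPKM in ETO2-GLIS2 cells. Only AML1-ETO cells reached 1 FPKM, and there CXCL2 rose 5.71-fold at 48 h, a log2 ratio of 2.51 (1.93 to 3.14). At 48 h the ETO2-GLIS2 and empty vector lines differed by a log2 ratio of 0.03, with an interval of -1.22 to 1.29 that leaves room for a 2-fold difference in either direction.

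CXCL10 (ENSG00000169245), known as interferon gamma-induced protein, had 0, 0.331 and 33.3 FPKM in AML1-ETO cells. These values correspond to 0, 6 and 595 reads. Control cells had 0, 0 and 0.0553 FPKM (1 read at 48 h), and ETO2-GLIS2 cells 0.323, 0 and 0 FPKM (7 reads at 0 h). Against the floor of 3 reads at 0 h, CXCL10 was at least 216-fold higher at 48 h in AML1-ETO cells, and the counting interval of the log2 ratio began at 7.45. Its level there was above that of 94.6% of the genes with reads. For ETO2-GLIS2 cells, the interval of the log2 ratio at 48 h ended at -0.35, and CXCL10 was not called because its mean was under 1 FPKM.

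CXCL11 (ENSG00000169248), the neighbour of CXCL10 and a ligand of the same receptor, had 0 FPKM in 8 libraries and 4.54 FPKM, from 123 reads, in the AML1-ETO library at 48 h. This was at least 44.7-fold above the floor at 0 h, and the interval of the log2 ratio began at 5.16. CXCL10 had 6 reads and CXCL11 none at 12 h in this line, which are too few to tell which of them came first. CXCL9, the other ligand of CXCR3, was among the genes under 1 FPKM and had a read in 1 library, which is named here after its values were seen.

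CXCL16 (ENSG00000161921), a membrane-bound ligand that is also a scavenger receptor for oxidised lipoprotein, had 0.506, 0.757 and 0.651 FPKM in control cells, 0.410, 0.719 and 1.72 FPKM in AML1-ETO cells, and 0.582, 0.861 and 1.93 FPKM in ETO2-GLIS2 cells. It was the only member that rose in both fusion lines at 48 h. The log2 ratio was 2.07 (1.32 to 2.88) in AML1-ETO cells, 1.73 (1.11 to 2.37) in ETO2-GLIS2 cells and 0.36 (-0.48 to 1.23) in control cells. Exons on the opposite strand (MED11 and ZMYND15) cover 6.2% of its exon bases, and the TruSeq version 2 kit used for the libraries does not mark strand.

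CCL5 (ENSG00000271503), also known as RANTES, was the most abundant ligand in every library, and its levels were 36.7, 39.3 and 18.4 FPKM in control cells, 49.6, 51.6 and 122 FPKM in AML1-ETO cells, and 31.7, 30.2 and 24.7 FPKM in ETO2-GLIS2 cells. Up to 12 h each line stayed near its starting level, and the lines moved apart at 48 h. The log2 ratio at 48 h was 1.30 (1.20 to 1.40) in AML1-ETO cells, -1.0 (-1.17 to -0.83) in control cells and -0.36 (-0.51 to -0.21) in ETO2-GLIS2 cells. The change in control cells stood at the threshold: it was not called on the deposited FPKM and was called lower when libraries were rescaled. At 48 h AML1-ETO cells were 6.63-fold above control cells, and at 0 h the log2 ratio of these lines was 0.44 (0.31 to 0.56).

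CCL2 (ENSG00000108691), the monocyte chemoattractant protein, had 0.137, 1.24 and 2.59 FPKM in ETO2-GLIS2 cells, from 5, 44 and 84 reads. Control cells had 0, 0.0665 and 0.164 FPKM and AML1-ETO cells 0, 0.0652 and 0.364 FPKM, with at most 11 reads. All 3 lines had their highest value at 48 h, and that of ETO2-GLIS2 cells was 7.1-fold above that of AML1-ETO cells. From 0 to 48 h, CCL2 rose 18.9-fold in ETO2-GLIS2 cells, a log2 ratio of 4.24 (2.96 to 5.90). With the change of control cells subtracted the log2 fold change was 0.03, a value that depends on the pseudocount because control cells had 0 reads at 0 h and 5 at 48 h. Compared directly at 48 h, ETO2-GLIS2 cells were above control cells by a log2 ratio of 3.98 (2.70 to 5.64). The interval of the log2 ratio began at 1.45 in AML1-ETO cells and at -0.05 in control cells, and no call was made in either because the mean was under 1 FPKM.

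CCL23 (ENSG00000274736), a ligand of CCR1, was highest at 12 h in each line. It had 2.15, 4.81 and 4.12 FPKM in control cells, 1.38, 7.07 and 0.443 FPKM in AML1-ETO cells, and 4.02, 7.84 and 3.63 FPKM in ETO2-GLIS2 cells. At 12 h it rose in AML1-ETO cells by a log2 ratio of 2.36 (1.59 to 3.20) and in control cells by 1.16 (0.46 to 1.89), and the log2 ratio in ETO2-GLIS2 cells was 0.96 (0.48 to 1.46). After this peak the lines parted: between 12 and 48 h the log2 ratio was -4.00 (-5.66 to -2.72) in AML1-ETO cells, -1.11 (-1.66 to -0.59) in ETO2-GLIS2 cells and -0.22 (-0.82 to 0.37) in control cells.

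CCL24 (ENSG00000106178), an eosinophil chemoattractant, had no reads in control cells. It had 0.0977, 0.840 and 1.49 FPKM in AML1-ETO cells, from 1, 8 and 14 reads, and 0, 0.0906 and 0.495 FPKM in ETO2-GLIS2 cells. With 1 read at 0 h, the log2 ratio of 3.93 at 48 h in AML1-ETO cells had an interval of 1.21 to 9.33. These read numbers rest on a length of 617 bases recovered from the values, below the annotated 1457 bases. CCL24 was not called in any line, because its mean was under 1 FPKM.

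CXCR4 (ENSG00000121966), the receptor of CXCL12, was the most abundant receptor in 8 of the 9 libraries. It had 75.4, 63.4 and 59.6 FPKM in control cells, 101, 74.2 and 2.07 FPKM in AML1-ETO cells, and 82.5, 80.7 and 36.8 FPKM in ETO2-GLIS2 cells. All 3 lines had their lowest value at 48 h, and the AML1-ETO library at 48 h lay far under the other 8, which ranged from 36.8 to 101 FPKM. There CXCR4 fell to 2.04% of its level at 0 h, from 3736 to 70 reads, a log2 ratio of -5.61 (-5.98 to -5.27). It also fell in ETO2-GLIS2 cells, by 1.16 on the log2 scale (interval -1.26 to -1.07). In control cells the log2 ratio was -0.34 (-0.42 to -0.26), and with the change of control cells subtracted that of ETO2-GLIS2 cells was -0.82, under 2-fold. At 12 h the log2 ratio was -0.45 (-0.52 to -0.38) in AML1-ETO cells, so that most of the change there came between 12 and 48 h. Of 9 monoblast markers tested in the AML1-ETO library at 48 h, 7 fell (LYZ to 45.1 FPKM), beside 11.3% of all genes, and CD33 and CD4 did not. In ETO2-GLIS2 cells 5 of 9 fell, beside 2.54% of all genes, and 1 rose, beside 10.8%. In control cells 2 of 9 fell, beside 2.99%. The part of these markers in the fall of CXCR4 was not tested. CXCL12, its ligand, had no reads in any library.

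CXCR2 (ENSG00000180871), the receptor of CXCL8 and CXCL2, had 8.24, 9.97 and 5.50 FPKM in control cells, 6.89, 8.33 and 3.01 FPKM in AML1-ETO cells, and 11, 13.7 and 8.39 FPKM in ETO2-GLIS2 cells. The course had the same shape in the 3 lines, with the highest value at 12 h and the lowest at 48 h. At 48 h the log2 ratio was -1.20 (-1.48 to -0.92) in AML1-ETO cells, where CXCR2 fell, -0.58 (-0.81 to -0.36) in control cells and -0.39 (-0.57 to -0.22) in ETO2-GLIS2 cells. With the change of control cells subtracted, the value in AML1-ETO cells was -0.61, under 2-fold.

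CXCR3 (ENSG00000186810), the receptor of CXCL10 and CXCL11, had 0.363, 0.923 and 0.384 FPKM in control cells, 0.875, 0.0696 and 0 FPKM in AML1-ETO cells, and 0.844, 2.58 and 1.74 FPKM in ETO2-GLIS2 cells. AML1-ETO cells had 27, 2 and 0 reads, and ETO2-GLIS2 cells had 29, 86 and 53 reads. The fusion lines thus started at similar levels and parted at 12 h. CXCR3 rose in ETO2-GLIS2 cells, by a log2 ratio of 1.61 (0.99 to 2.27) at 12 h and 1.04 (0.36 to 1.75) at 48 h, and the change at 48 h was under 2-fold when libraries were rescaled. In control cells the log2 ratio at 12 h was 1.34 (0.28 to 2.51), and with the change of control cells subtracted the values in ETO2-GLIS2 cells were 0.28 at 12 h and 0.96 at 48 h, both under 2-fold. For AML1-ETO cells it was at least 8.26-fold lower at 48 h than at 0 h against the floor of 3 reads, with an interval that ended at a log2 ratio of -2.65, a mean under 1 FPKM and no call. In that library its ligands CXCL10 and CXCL11 were at 33.3 and 4.54 FPKM.

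CCR1 (ENSG00000163823), a receptor of CCL5 and CCL23, had 6.16, 8.66 and 13.7 FPKM in control cells, 8.30, 3.94 and 5.14 FPKM in AML1-ETO cells, and 8.59, 9.93 and 15.1 FPKM in ETO2-GLIS2 cells. Its value was higher at each later time in the empty vector and ETO2-GLIS2 lines and stayed below its starting level in AML1-ETO cells. CCR1 rose at 48 h in control cells, by a log2 ratio of 1.16 (0.94 to 1.37), and fell at 12 h in AML1-ETO cells, by 1.07 on the log2 scale (interval -1.35 to -0.80). The log2 ratio at 48 h was 0.81 (0.63 to 0.99) in ETO2-GLIS2 cells and -0.69 (-0.94 to -0.44) in AML1-ETO cells.

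CCR2 (ENSG00000121807), the receptor of CCL2, had 1.04, 1.47 and 1.37 FPKM in control cells, 0.792, 0.677 and 0.0352 FPKM in AML1-ETO cells, and 3.43, 4.13 and 1.18 FPKM in ETO2-GLIS2 cells. ETO2-GLIS2 cells started 1.72 log2 units above control cells (1.32 to 2.15) and no longer exceeded them at 48 h. CCR2 fell there by 1.54 on the log2 scale (interval -1.94 to -1.15), while its ligand CCL2 rose in the same line. The reads in AML1-ETO cells were 49, 39 and 2, a log2 ratio at 48 h of -4.49 (-7.58 to -2.56) that was not called because the mean was under 1 FPKM.

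CX3CR1 (ENSG00000168329), the fractalkine receptor of monocytes, had 1.33, 2.91 and 1.28 FPKM in control cells, 1.85, 1.72 and 0.0899 FPKM in AML1-ETO cells, and 1.42, 3.52 and 2.46 FPKM in ETO2-GLIS2 cells. At 12 h it rose in control cells, by a log2 ratio of 1.13 (0.73 to 1.54) that was just under 2-fold after rescaling, and in ETO2-GLIS2 cells, by 1.30 (0.96 to 1.66), which came to 0.17 with the change of control cells subtracted. The log2 ratio in AML1-ETO cells was -0.10 (-0.51 to 0.30). AML1-ETO cells had 112 reads at 0 h and 5 reads at 48 h, a log2 ratio of -4.36 (-6.01 to -3.10) with a mean under 1 FPKM and no call. When libraries were rescaled, the mean of CX3CR1 reached 1 FPKM there, and it was called lower at 48 h. Its ligand CX3CL1 had no reads in any library.

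CCR10 (ENSG00000184451), a receptor of skin-homing lymphocytes, stayed between 0.544 and 1.77 FPKM in the 9 libraries. The lowest value of each line was at 12 h, and no comparison with 0 h passed 2-fold, except that the value at 12 h in ETO2-GLIS2 cells did so when libraries were rescaled. At 48 h the log2 ratio was 0.31 (-0.32 to 0.94) in control cells, -0.46 (-1.24 to 0.29) in AML1-ETO cells and 0.31 (-0.18 to 0.80) in ETO2-GLIS2 cells, and the interval of AML1-ETO cells reaches past 2-fold lower. Exons on the opposite strand (CNTNAP1 and a gene without a symbol) cover 34.4% of its exon bases, and reads of the 3 genes cannot be told apart there.

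**Figure D3:**
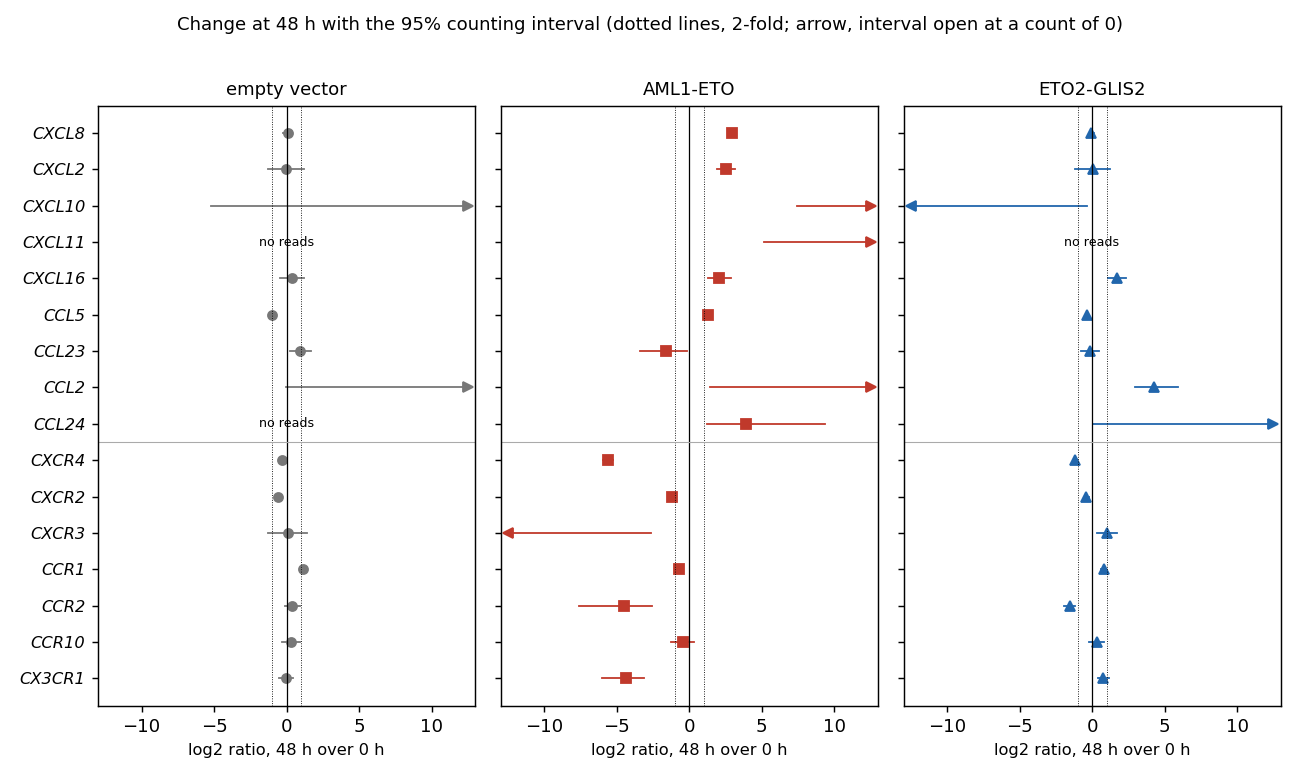
Log2 ratio of reads, 48 h over 0 h, of the 16 expressed members in each line, with exact 95% counting intervals. Arrows mark intervals that are open because a library had 0 reads, dotted lines mark 2-fold, and the horizontal line separates ligands (above) from receptors (below). CXCR4 lies at -0.34 in control cells, at -1.16 with ETO2-GLIS2 and at -5.61 with AML1-ETO.

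The same rule was applied at 12 h. Among control cells, 8 members passed the filter, and 2 rose (CCL23 and CX3CR1) beside 5.64% of all genes and 1 fell (CXCL8) beside 1.88%. Among AML1-ETO cells, 8 members passed, and 1 rose (CCL23) beside 6.57% of all genes and 1 fell (CCR1) beside 2.39%. Among ETO2-GLIS2 cells, 10 members passed, and 2 rose (CX3CR1 and CXCR3) beside 3.03% of all genes and 1 fell (CXCL8) beside 1.46%, and CXCR3 passed the filter through the 12 h library alone. CX3CR1 and CXCL8 thus passed 2-fold at 12 h in the empty vector and ETO2-GLIS2 lines, and in AML1-ETO cells CXCL8 had a log2 ratio of 0.47 (0.31 to 0.63). The median log2 fold change at 12 h of the members tested was 0.38, 0.17 and 0.24 in the empty vector, AML1-ETO and ETO2-GLIS2 lines, and 0.14, 0.18 and 0.11 over all genes. None of the 6 members that rose in AML1-ETO cells at 48 h had passed 2-fold and this filter at 12 h. CXCL10, CXCL11 and CXCL16 could not be called at 12 h, because their mean was under 1 FPKM, so this does not date their onset.

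Relatives outside the naming rule, which are receptors for other chemoattractants or chemokine-like proteins, were followed as a list of 18 genes. At 48 h, 7 of these were tested in control cells and 8 in each fusion line. The shares of all genes past 2-fold, against which the counts of this list are read, were 17.3% higher and 11.3% lower in AML1-ETO, 10.8% and 2.54% in ETO2-GLIS2 and 8.0% and 2.99% in control cells. AML1-ETO cells had 3 that rose and 2 that fell, with a median log2 fold change of 0.06. FPR2, a formyl peptide receptor, went from 2.18 to 7.58 FPKM, C3AR1, a complement receptor, from 3.16 to 8.53 FPKM, and C5AR1, another complement receptor, from 0.773 to 2.55 FPKM. GPR35 went from 3.77 to 0.207 FPKM and PTAFR, the receptor of platelet-activating factor, from 26.0 to 4.29 FPKM. Of the list in ETO2-GLIS2 cells, FPR2 (0.583 to 1.43 FPKM), C5AR1 (0.787 to 7.63 FPKM) and the leukotriene receptor LTB4R (6.52 to 15.5 FPKM) rose and 0 genes fell. In control cells, GPR35 (3.35 to 6.99 FPKM) and C5AR1 (0.581 to 6.33 FPKM) rose and 0 fell. C5AR1 thus rose in all 3 lines under doxycycline, and GPR35 moved in opposite directions in the empty vector and AML1-ETO lines.

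Signalling downstream of chemokine receptors was followed with 35 genes. In AML1-ETO cells at 48 h, 12 of the 31 tested fell, beside 11.3% of all genes, and 0 rose, beside 17.3%. The median log2 fold change was -0.59, beside 0.22 over all genes tested. Those that fell included RAC2, a small GTPase of leukocyte migration (68.7 to 3.02 FPKM), the kinase GRK2, which phosphorylates active receptors (110 to 20.2 FPKM), the arrestin ARRB2 (27.7 to 8.09 FPKM), the exchange factor VAV1 (18.4 to 3.03 FPKM) and the phospholipase PLCB2 (22.2 to 4 FPKM). GRK6, PREX1, RGS14, RGS16, PTK2B and FGR also fell. For ETO2-GLIS2 cells, 4 of 33 rose, among them GNG2, PIK3R6 and FGR, and 1 fell (GNG5), beside 10.8% and 2.54% of all genes, and in control cells 2 of 31 rose, among them FGR, and 1 fell (RGS2), beside 8.0% and 2.99%. The Src-family kinase FGR had 16.2 and 53.5 FPKM at 0 and 48 h in control cells, 19.8 and 44.4 FPKM in ETO2-GLIS2 cells, and 23.8 and 1.07 FPKM in AML1-ETO cells. The 12 genes were thus lower in the same library as the receptors CXCR4 and CXCR2.

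Genes around the 4 ligands of chromosome 4 were followed in lists of 22 NF-kB and inflammatory cytokine genes and 15 interferon signalling genes. Of 17 NF-kB genes tested in AML1-ETO cells at 48 h, 2 rose, beside 17.3% of all genes, and 4 fell, beside 11.3%, with a median log2 fold change of 0.21. RELB, an NF-kB subunit, went from 2.98 to 10.8 FPKM and the receptor TLR2 from 5.04 to 12.0 FPKM. NFKBIA, the inhibitor of NF-kB, went from 7.57 to 1.36 FPKM, TNF from 5.57 to 1.1 FPKM, NFKBIE from 22.0 to 10.4 FPKM and TNFAIP2 from 30.9 to 13.2 FPKM. For ETO2-GLIS2 cells, 1 of 17 rose (TNFAIP3, 2.28 to 4.93 FPKM) and 0 fell, beside 10.8% and 2.54% of all genes, and in control cells 0 of 16 changed, beside 8.0% and 2.99%. The median of the NF-kB list was 0.39 in ETO2-GLIS2 cells and 0.33 in control cells. Of 11 interferon signalling genes tested in AML1-ETO cells, 4 rose and 2 fell, beside the same shares of all genes, with a median of 0.48. Among those that rose, STAT2 went from 19.2 to 96.7 FPKM, IRF7 from 4.78 to 96.6 FPKM and IRF9 from 0.253 to 2.50 FPKM, which encode transcription factors of the interferon response. IRF8 went from 91.9 to 9.82 FPKM and the receptor chain IFNGR2 from 11.4 to 3.42 FPKM. At 12 h, STAT2 had 19.6 FPKM and IRF7 4.42 FPKM in this line, when CXCL10 had 6 reads and CXCL11 none. In ETO2-GLIS2 cells 2 of 11 rose (IRF1, 1.02 to 2.18 FPKM, and IRF7, 4.88 to 12.3 FPKM) and 1 fell (IRF8, 71.7 to 18.9 FPKM), and in control cells 0 of 11 changed, again beside the shares of all genes given for these lines. The median of the interferon list was 0.45 in ETO2-GLIS2 cells and 0.44 in control cells, close to that of AML1-ETO cells.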

How the data were processed

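RNA-seq of 9 libraries of U937 lines was used, with 1 library for each line and time. Per the paper's methods and the submitters' processing notes, the authors used HISAT2 (2.0.5) for alignment to hg38, SAMtools (1.7) for handling alignments and HTSeq (0.9.1) for counting by gene. They deposited FPKM, scaled by exon length and by the reads on genes, for 60623 genes. The annotation version is not given in the sources used here.

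Members were found by gene name, and lines and times come from the sample labels. The members and the gene lists were chosen with earlier results of these data known. Reads were recovered from the FPKM values in Python (3.11.15, with scipy 1.17.1, numpy 2.4.6 and pandas 2.3.3), and whole numbers were found in 23692 (99.18%) of 23889 genes listed above 0 in 3 or more libraries. The recovered reads added up to 87.16% to 92.38% of the reads on genes in a library. On simulated data, 99.5% of 6000 genes were given the exact reads. Recovered reads serve for the read numbers, for the log2 ratios printed with an interval, for the intervals and for floors of 3 reads. Calls, medians and log2 fold changes rest on FPKM.

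A gene was called past 2-fold on the scale of log2(FPKM + 0.01), which understates the change of low genes, when the mean of the compared libraries reached 1 FPKM. Calls were counted over all genes that passed this filter, and no set test was made. All members with at least 1 FPKM in any library are named, the others are given by counts, and genes of the lists are named where called in at least 1 line at 48 h. A few genes of the lists are not reported here by name. Promoters come from RefSeq (GRCh38.p14), lengths and exon overlaps from a GENCODE annotation lifted to GRCh37, from which no coordinates were taken. Plots were drawn with matplotlib (3.10.9). Alternatives covered the pseudocount, the scaling, the filter, the fold limit, the time point and the empty vector line, and those for 12 h and the counting interval were chosen after seeing the data. The ChIP-seq data were not analysed here.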

Additional observations from a re-analysis of the deposited data

Results flagged for a closer look

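The differences between lines given here had opposite directions in each line, with counting intervals at 12 and 48 h that did not include 0 in either line. With 1 library per condition, none of these differences was tested. CXCL10 moved up in AML1-ETO cells and down in ETO2-GLIS2 cells, where the change was from 7 reads at 0 h to 0 at 48 h and was not called. The log2 fold change at 48 h of ETO2-GLIS2 minus AML1-ETO was -16.76, a value that depends on the pseudocount because each line has libraries at 0. CXCR3 showed the reverse, with a difference of 7.50, and has a library at 0 in AML1-ETO cells. CCR1 was lower than at 0 h in AML1-ETO cells and higher in the others, with a difference of -1.84 for AML1-ETO minus empty vector and of 1.5 for ETO2-GLIS2 minus AML1-ETO.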

How the results depend on the processing

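The 22 log2 fold changes of called members kept their direction with pseudocounts of 0.1 and 1 FPKM and after rescaling, and 17 of 18 did so with the change of control cells subtracted. The exception was CXCL8 at 12 h in ETO2-GLIS2 cells, which came to 0.55. This subtraction also ended the calls of CXCR2 in AML1-ETO cells (-0.61) and of CCL2 (0.03), CXCR3 (0.96) and CXCR4 (-0.82) in ETO2-GLIS2 cells at 48 h, and of CXCR3 (0.28) and CX3CR1 (0.17) in ETO2-GLIS2 cells at 12 h. The CCL2 value depends on the pseudocount, because control cells had 0 reads of it at 0 h and 5 at 48 h. Counts are given as members higher or lower, in the order empty vector, AML1-ETO, ETO2-GLIS2, for those that moved by over 1.5 times. Of the 48 h counts, the same rule at 12 h gave 2 and 1 higher in the first 2 lines and 1, 1 and 1 lower, with medians of 0.38 and 0.17 in the first 2 lines. Without a filter on low values there were 9, 20 and 11 higher and 7, 8 and 6 lower at 48 h, and 9, 11 and 11 higher and 7, 7 and 6 lower at 12 h, and the AML1-ETO median at 48 h over the 65 members was 0.0. With a mean of at least 5 FPKM, the AML1-ETO and ETO2-GLIS2 lines had 3 and 0 higher and 1 and 1 lower at 48 h, the medians were -0.34 in control cells and -0.36 in ETO2-GLIS2 cells, and 12 h gave 0 higher in each line and 0 lower in control cells. With all members of at least 1 FPKM in any library, 3 were higher in control cells and 6 lower in AML1-ETO cells at 48 h, the AML1-ETO median was 0.42, and at 12 h 4, 4 and 4 were higher and 2 and 2 lower in the fusion lines. At a 1.5-fold limit, 2 were higher and 1 lower in control cells and 5 higher in ETO2-GLIS2 cells at 48 h, and at 12 h 2 were higher in AML1-ETO cells and 2 lower in ETO2-GLIS2 cells. At a 3-fold limit, 0 were higher in control cells, and 1 and 0 lower in the fusion lines at 48 h, and at 12 h 0 were higher in control cells, 1 higher in ETO2-GLIS2 cells, and 0 lower in the fusion lines. A pseudocount of 1 gave 1 higher in ETO2-GLIS2 cells and 1 lower in AML1-ETO cells at 48 h, and at 12 h 0 higher in the empty vector and ETO2-GLIS2 lines and 0 lower in AML1-ETO cells. Rescaling gave 1 lower in control cells at 48 h (CCL5), and at 12 h 1 higher there and 2 lower in ETO2-GLIS2 cells. It also gave 3 lower in AML1-ETO cells at 48 h, with CX3CR1 added, a count that had not moved by over 1.5 times. Subtracting control cells gave 1 higher in ETO2-GLIS2 cells at 48 h, while the count of 2 lower in each fusion line held CCR1 in place of CXCR2 and CCL23 in place of CXCR4, and at 12 h 2 higher and 2 lower in AML1-ETO cells and 0 and 0 in ETO2-GLIS2 cells. With the counting interval wholly past 2-fold, 0 were higher in control cells and 1 lower in AML1-ETO cells at 48 h (CXCR4), and at 12 h 0 were higher in the empty vector and ETO2-GLIS2 lines and 0 lower in AML1-ETO cells. Of the 16 expressed members, 5 were at 1 FPKM in all 9 libraries. No paired analysis was possible because each condition had 1 library, and leaving out a library leaves no comparison. Spread between cultures and clones was not measured, and at this depth members under about 1 FPKM rest on few reads.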
